A study of Mus musculus with 16 samples.

Results

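Most CpG-dense DNA of a mouse cell lies in CpG islands, which are kept free of methylation and often hold promoters. The sites described here are the exception: CpGs in dense surroundings that were nevertheless almost fully methylated. They were chosen by 2 criteria, a deposited number of at least 15 CpGs within 100 bp and a methylation level of at least 90% in both parental cultures, where the level is the percentage of reads that carry a methylated cytosine. Of 1203687 CpGs measured in every library, 5873 met both criteria. They made up 3.05% of the 192356 CpG-dense sites and 2.49% of the 235406 CpGs with a level of at least 90% in both parents. The parental values selected the sites and were not tested. The deposited number does not equal a direct count: in the GRCm38 sequence, 3611 of the 5873 (61.5%) had at least 15 CpGs within 100 bp with the site itself included, and 2858 (48.7%) without it. Dense here therefore means dense by the deposited number.

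The study grew mouse embryonic fibroblasts (MEFs), connective tissue cells of the embryo, from 2 sibling C57BL/6J embryos at E13.5, and made the cultures MEF-1 and MEF-2 immortal by long passaging with no added gene. From each parental culture, 7 clonal lines were grown, each from 1 sorted cell. No treatment was given, so all 16 libraries (2 parental and 14 clonal) share the inbred strain and culture conditions and differ in embryo, sex and clone. MEF-1 is male and MEF-2 female, and some lines have an altered copy number of whole chromosomes. The series table used here leaves out the chromosomes that the authors found altered, together with the sex chromosomes. Copy number on the remaining chromosomes was not tested here. Each parental culture is 1 library, and in any difference between MEF-1 and MEF-2 the embryo, its sex and its culture cannot be told apart. Target capture bisulfite sequencing gave 59243669 to 90633091 reads of a CpG per library, and the dense sites had a median of 24 to 33 reads in the clonal lines. A level of 90% at such depth can turn on 2 or 3 reads. Bisulfite-treated reads do not tell a C-to-T change of the genome from an unmethylated cytosine, and PCR reads are not independent molecules, so the intervals given here cover counting error only. Only 3 of 24 fibroblast marker genes (Col5a1, Pdgfra and Snai2) had at least 3 dense promoter sites, which had mean levels of 1.02% to 7.69% in the clonal lines of either culture, and none held a site of the group.

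Methylation at CpGs is copied after replication by the maintenance enzyme DNMT1, which acts on the hemimethylated sites that replication leaves, and it can be added by DNMT3A and DNMT3B. Dense methylation at a promoter accompanies silencing, the well-known cases being genes of the germ line, one allele of imprinted genes and the inactive X chromosome. In gene bodies, methylation accompanies transcription. A clonal line begins with 1 cell, so a site that was methylated on both alleles in that cell and copied at each division should be read as methylated in the whole line.

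The dense sites did not lie evenly along the chromosomes but in 1012 runs, joined wherever neighbours were at most 200 bp apart. Of these, 653 held at least 3 sites, and these 653 regions took in 5375 sites (91.5%). Stretches of 4 regions are shown because the results turn on them, each read 5′ to 3′ on the plus strand of GRCm38, with the dense methylated sites in capitals. Scaf1 is the largest region in a coding exon, Foxl1 is a promoter in which every measured dense site belonged to the group, and the stretches near Mapk1ip1 and in Sycp1 each begin at or near a site that was lost in 1 line.
Scaf1, coding exon, chr7:45007527-45007824: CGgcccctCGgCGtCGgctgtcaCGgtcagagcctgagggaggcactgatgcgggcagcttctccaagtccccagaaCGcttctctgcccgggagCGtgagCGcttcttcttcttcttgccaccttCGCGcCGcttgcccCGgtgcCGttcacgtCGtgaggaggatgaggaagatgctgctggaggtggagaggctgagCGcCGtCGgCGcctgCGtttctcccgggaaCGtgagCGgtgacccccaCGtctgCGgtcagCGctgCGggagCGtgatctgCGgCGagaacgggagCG
Foxl1, promoter, chr8:121127840-121127936: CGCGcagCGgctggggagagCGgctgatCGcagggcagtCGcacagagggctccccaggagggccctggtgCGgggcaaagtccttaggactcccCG
Mapk1ip1, intergenic, chr7:138829867-138829981: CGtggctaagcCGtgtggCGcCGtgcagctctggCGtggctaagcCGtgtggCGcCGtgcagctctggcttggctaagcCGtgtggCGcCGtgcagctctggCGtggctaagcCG
Sycp1, intron, chr3:102935375-102935468: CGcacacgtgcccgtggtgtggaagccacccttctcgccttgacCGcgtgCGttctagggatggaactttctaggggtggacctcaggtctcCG
In the Scaf1 stretch, 29 of 34 measured CpGs belonged to the group, and in the Foxl1 stretch 8 of 8.

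The first question was how often these sites stayed methylated in the clonal lines. A site was called kept in a line when its level there was at least 90%. In the MEF-1 lines, the share of dense sites kept was 96.0% in the lowest line, 96.5% in the median line and 96.8% in the highest. In the MEF-2 lines the same share was 92.9%, 95.0% and 95.4%. All MEF-1 lines lay above all MEF-2 lines, with 96.5% ± 0.309 (SD, n = 7) against 94.6% ± 0.833 (SD, n = 7), a difference of 1.88 percentage points (exact two-sided permutation test, p = 0.000583, the smallest that 7 against 7 lines allow, adjusted p = 0.00408 over 7 comparisons). The mean level over the dense sites was 98.0% ± 0.161 (SD, n = 7) in the MEF-1 lines and 97.2% ± 0.139 (SD, n = 7) in the MEF-2 lines, beside 98.2% and 97.5% in their parents. Sites at the margin of the criterion were kept less often than those far from it. Where the lower parent was at 90% to 92%, the share kept was 92.5% over the MEF-1 lines and 86% over those of MEF-2, and where both parents were at 100%, it was 97.6% and 96.5%. Dense sites just outside the criterion, with the lower parent at 88% to 90%, reached 89.6% and 84.1%. These groups were cut from the parental reads that chose the sites, and kept uses the same 90%. A lower share at the margin is thus partly built in and was not tested.

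CpGs that were methylated in both parents but lay in less dense DNA, 229533 in number, were kept less often. Their share was 96.0% ± 0.440 (SD, n = 7) in the MEF-1 lines and 92.5% ± 0.966 (SD, n = 7) in the MEF-2 lines. The dense sites were 0.513 ± 0.345 percentage points (SD, n = 7) higher in MEF-1, with 6 of 7 lines in that direction (exact two-sided sign-flip test, p = 0.0313, adjusted p = 0.0365). Without any single one of MEF-1 lines 2 to 7 the gap was 0.444 to 0.556 points and the call was lost (exact test, p = 0.0625), as it was on chromosomes 3, 4, 6 and 9 alone (0.366 points, exact test, p = 0.125). In MEF-2 they were 2.16 ± 0.417 points (SD, n = 7) higher, in 7 of 7 lines (exact test, p = 0.0156, adjusted p = 0.0273). The dense sites had a higher mean parental level, 98.2% against 97.8% in MEF-1 and 97.5% against 97.1% in MEF-2. With both parents at 95% or more, the MEF-2 gap fell to 1.37 points (exact test, p = 0.0156). The MEF-1 gap hardly moved (exact test, p = 0.0313). The part of the parental level in what remained was not tested. The dense sites also had fewer reads than the less dense ones in the parental cultures (medians of 34 against 40 in MEF-1). The gap between dense and less dense sites was itself 1.64 points smaller in MEF-1 than in MEF-2 (exact permutation test, p = 0.000583, adjusted p = 0.00117 over 2 comparisons). Among the dense sites, 3776 (64.3%) were kept in all 14 lines, against 58.2% of the less dense sites, and 26 dense sites (0.443%) were kept in 7 lines or fewer.

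The share kept did not climb evenly with density. In MEF-2 it went from 91.9% ± 0.984 (SD, n = 7) for sites with 0 to 4 CpGs within 100 bp to 95.4% ± 1.76 (SD, n = 7) for the 190 sites with 25 to 34. In MEF-1 it went from 95.8% ± 0.474 (SD, n = 7) to 96.7% ± 0.359 (SD, n = 7) for sites with 15 to 19, and was 93.5% ± 1.17 (SD, n = 7) for the 190 densest. With at least 20 CpGs as the criterion, the MEF-1 dense sites were 0.136 points lower than the less dense ones (exact test, p = 0.625), so the MEF-1 gap did not hold for the densest sites. Under that criterion the difference between MEF-1 and MEF-2 was 0.976 points (exact test, p = 0.0536). Few sites of such density met the criterion of methylation: both parents were at 90% or more at 27.6% of the measured CpGs with 0 to 4 CpGs within 100 bp and at 0.684% of those with 25 to 34.

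**Figure D1:**
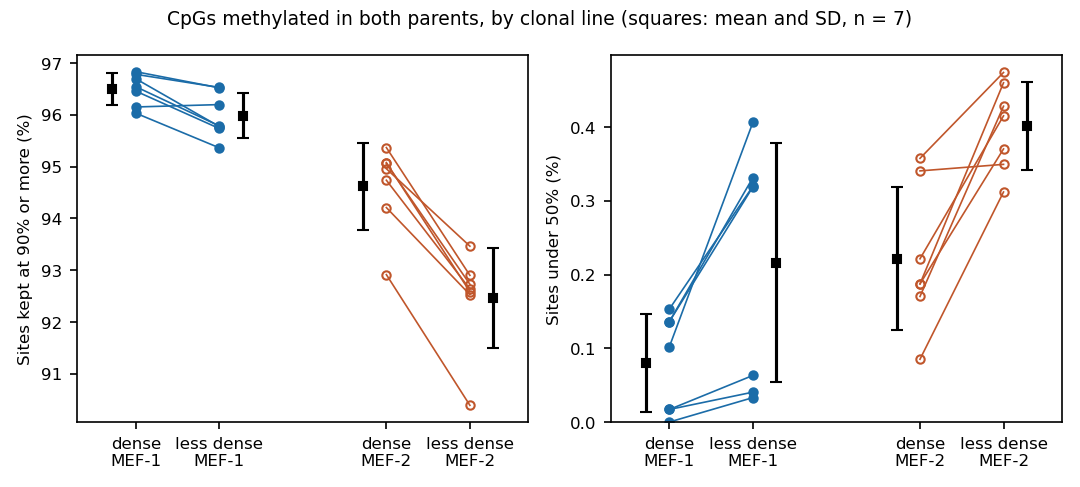
Share of CpGs kept at 90% or more (left axis, %) and under 50% (right axis, %) in each clonal line, for CpGs with a deposited number of at least 15 CpGs within 100 bp (dense) and the rest, all at 90% or more in both parents. Lines join the values of 1 clonal line and squares give mean and SD (n = 7). Every MEF-1 line lies above every MEF-2 line in the share of dense sites kept, and in every line the lost share is lower at dense sites.

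Losses were rare at the cutoff used. A site was called lost in a line when its level fell under 50%. This was so in 124 of 82222 combinations of a dense site with a clonal line (0.151%). At the less dense sites it was so in 9922 combinations (0.309%). The paper takes 50% as the level of methylation on a single allele, so this cutoff can miss such sites. The lost share was 0.0803% ± 0.0665 (SD, n = 7) at dense and 0.216% ± 0.163 (SD, n = 7) at less dense sites in the MEF-1 lines, and 0.221% ± 0.0968 (SD, n = 7) and 0.401% ± 0.0596 (SD, n = 7) in the MEF-2 lines. It was lower at dense sites in all 14 lines (exact sign-flip test within each culture, p = 0.0156, the smallest that 7 lines allow, adjusted p = 0.0273). On chromosomes 3, 4, 6 and 9 alone the MEF-1 call was lost (-0.161 points, exact test, p = 0.0781). The size of this gap differed between the cultures by 0.0440 points (exact permutation test, p = 0.411). MEF-1 lines 1 to 7 had 1, 6, 8, 0, 1, 9 and 8 lost dense sites. MEF-2 lines 1 to 7 had 10, 11, 5, 20, 13, 21 and 11. At the less dense sites the lost share was 0.0331% to 0.0632% in MEF-1 lines 1, 4 and 5, and 0.319% to 0.406% in MEF-1 lines 2, 3, 6 and 7. In the MEF-2 lines it was 0.312% to 0.474%. The MEF-1 means and SDs thus span unlike lines. The count of 0 in MEF-1 line 4, among 5873 sites, allows a share of up to 0.0511% at 95% confidence if sites were independent. They lay in 1012 runs, so this limit may be too tight. With a loss set at under 75%, the lost share of dense sites rose to 0.832% in the MEF-1 and 1.30% in the MEF-2 lines. The gaps to the less dense sites were then -0.284 and -0.537 points (exact test, p = 0.0313 and 0.0156). With both parents at 95% or more and a loss under 50%, the gaps were -0.0723 and -0.0722 points (exact test, p = 0.0313 and 0.0156).

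The 124 losses fell on 109 sites. Of these, 98 were lost in 1 line, 7 in 2 lines and 4 in 3 lines, and none in more. There were 29 sites with a loss in MEF-1 and 81 in MEF-2, with 1 in both. Most lost sites were not emptied of methylation: 113 of the 124 (91.1%) lay at 30% to 50%, 8 at 10% to 30% and 3 under 10%, with a median of 42.3%. In 107 of the 124 cases other sites of the group lay within 100 bp. Only such sites, chosen for high parental levels, count as dense neighbours here and below. They gave 608 combinations of a neighbour and a case, a neighbour of several lost sites counting each time. In the same line these averaged 95.3%, a value that leaves out the other CpGs nearby. Of the 608, 533 (87.7%) were kept, below the mean shares of 96.5% and 94.6% over all dense sites, and 4 (0.658%) were lost as well, beside 0.151% over all. These differences were not tested. By place, the lost share was 0.162% in coding exons (68 losses), 0.158% in intergenic DNA (29), 0.124% in introns (19), 0.132% in promoters (5) and 0.223% in 3′ UTRs (3). In 5′ UTRs, 0 of 1456 combinations were lost, which allows a share of up to 0.206% if combinations were independent.

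**Figure D2:**
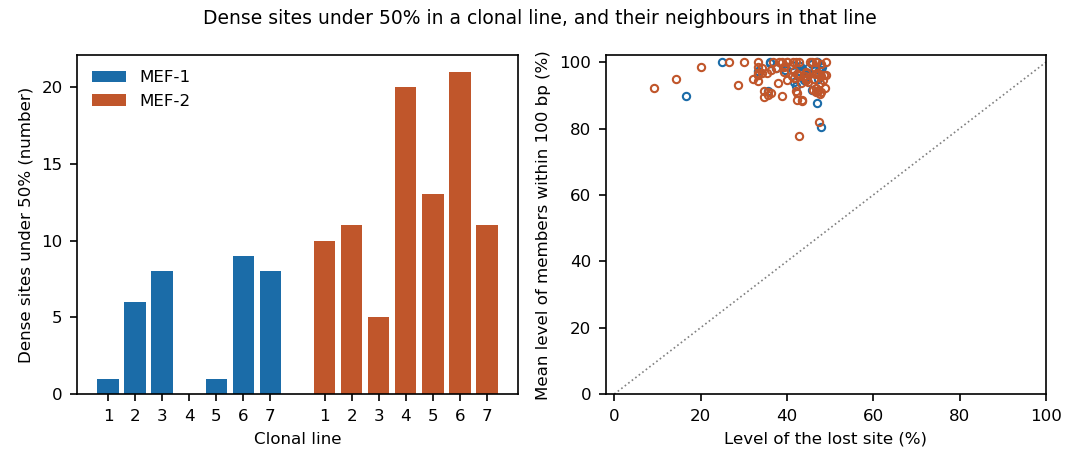
Left, number of dense sites under 50% in each of the 14 clonal lines, from 0 in MEF-1 line 4 to 21 in MEF-2 line 6. Right, level of each lost site (horizontal axis, %) against the mean level in the same line of the other sites of the group within 100 bp (vertical axis, %), for the 107 losses that have such neighbours, with a dotted line at equality. Other CpGs nearby are not shown. The neighbours sit far above equality, and 113 of all 124 losses lie between 30% and 50%.

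The 2 sites with the smallest p in a test of each line against the 6 others of its culture lay in the printed stretches. The test compares pooled reads, with 1 library on one side, so its p-values cover counting error and not the spread between lines. Near Mapk1ip1, in a stretch that is part of a tandem repeat, the CpG at position 19 of the stretch (chr7:138829885) had 68 of 144 reads methylated in MEF-1 line 6, a level of 47.2% (95% Wilson interval 39.2% to 55.3%), while the 6 other MEF-1 lines were at 96.6% to 100% (one-sided Fisher's exact test, adjusted p = 6.46e-49). In the same line, 11 of the 12 other dense sites of the stretch were at 95.1% to 100%, and the remaining one, at position 103, was at 63.5% (54.4% to 71.7%). In Sycp1, which encodes a core protein of the synaptonemal complex of meiosis, the CpG at position 1 of the stretch (chr3:102935375) had 33 of 85 reads methylated in MEF-2 line 6, a level of 38.8% (29.2% to 49.5%), against 95.7% to 100% in the 6 other MEF-2 lines (Fisher's exact test, adjusted p = 1.41e-32). Its 3 dense neighbours in the stretch were each at 100% in that line. The measured CpGs of the stretch outside the group were at 94.1% to 98.7% there, and as low as 55.8% in another MEF-2 line. Both sites were above 90% in all 7 lines of the other culture.

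By the same test, 788 combinations of a dense site and a line were called lower (0.958%), beside 3.38% over all CpGs and lines and 1.43% at the less dense sites. The number called followed the reads and the reference lines, with 66 after thinning to 10 reads and 1406 against the 13 other lines of both cultures. They included 104 of the 124 losses. Sites that varied among the sister lines were called too: a coding site of Pigt (chr2:164507435), picked out after its values were seen, was at 41.1% in MEF-1 line 3 (Fisher's exact test, adjusted p = 7.65e-06), while the 6 other MEF-1 lines ranged from 43.1% to 100%. The 10 called sites with the smallest p, counting 1 per region, included the sites near Mapk1ip1 and in Sycp1. An intronic site of Slc4a8, a sodium-dependent bicarbonate transporter gene, was at 53.3% (43.1% to 63.3%) in MEF-1 line 7, with 4 of 4 dense neighbours kept. A further 6 were intergenic, at 37.7% to 64.2%, nearest to the starts of Pcdh20, Med10, Mettl4, Foxj3, Nr5a2 and Vmn2r87. Those near Med10 and Nr5a2 had no other site of the group within 100 bp. The Pcdh20 case was the one of the 6 in which a dense neighbour had also gone under 90%, to 66.7%. Except for the site near Nr5a2, these intergenic sites lay in processed pseudogenes, copies of an mRNA in the genome, and whether reads there came from other copies was not tested.

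The 3 losses under 10% were picked out after their values were seen. A coding site of Eva1a (chr6:82091901) had 0 of 24 reads methylated in MEF-1 line 2, with a Wilson interval reaching 13.8%, and its 6 sister lines had a median of 75.9%, so this site varied in MEF-1 beyond that line. A coding site of Tubb5, a beta-tubulin gene (chr17:35835532), had 0 of 19 reads methylated in MEF-2 line 6, against a median of 93.8% in the 6 others, of which the lowest was at 54.5%. A coding site of Sall4, which encodes a zinc finger factor of pluripotent cells (chr2:168752527), had 2 of 22 reads methylated in MEF-2 line 7, against a median of 91.6% and a lowest value of 52.0% in the 6 others, and 3 of its 4 dense neighbours were kept. Whether any lost site had changed in sequence was not tested.

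Over its sites of the group, no region was lost as a whole. In the 653 regions of at least 3 sites, only the reads of these sites were pooled. Other measured CpGs inside a region were left out. None of 9142 combinations of a region and a line was under 50%. Of these combinations 8956 (98.0%) were at 90% or more, with a median of 98.3%, and 543 regions (83.2%) were at 90% or more in all 14 lines. The lowest was 68.9%. The 6 regions under 75% in a line, named after their values were seen, each held 3 or 4 dense sites and fell under that level in 1 line. They lay in coding exons of Col15a1, a basement membrane collagen gene (73.8% in MEF-2 line 5), and Srrm4, a neuronal splicing regulator gene (72.0% in MEF-1 line 7), and between genes nearest to Rack1, Llgl1, Prl2c5 and Pcdh20. Each of these 4 lay in a processed pseudogene (Gm12183, Gm12620, Gm2423 and Gm10110), and the part of reads from other copies was not tested.

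The regions with the most sites were kept in every line, over the sites of the group alone. These were 51 of 51 measured CpGs in the largest region, but 34 of 50 in that of Foxl1 and 32 of 50 in that of Klhl26. The largest held 51 dense sites over 611 bp between genes (chr5:147112662-147113272, nearest to Polr1d), and its pooled level was 97.6% in the lowest, 98.6% in the median and 99.2% in the highest of the 14 lines. The next held 49 sites (chr7:138829867-138830328, the Mapk1ip1 region), at 92.6%, 95.6% and 98.3%. Both are tandem repeats: 80.2% of the bases of the first matched the base 30 bp further on, and 98.4% of those of the second matched the base 34 bp on, against 30.4% to 37.6% at the best shift in the other 8 of the 10 largest regions. Reads were deeper there, with medians of 73 and 83 per site, and the part of the repeats in these values was not tested. In coding exons, the region of Scaf1 (43 sites, an SR-related splicing factor gene) ranged over the lines from 97.1% to 99.4%, that of Tenm3 (40 sites, a teneurin of neuronal contacts) from 97.1% to 99.7%, and that of Sbk1 (36 sites, a kinase gene) from 96.4% to 98.9%. The regions of Spred2 (35 sites, an inhibitor of Ras signalling), Spen (34 sites, a transcriptional repressor), Foxl1 (34 sites, a forkhead factor) and Klhl26 (32 sites) had lowest lines of 97.5%, 97.9%, 95.8% and 93.9%. The region at the start of D1Pas1, a single-exon gene for a DEAD-box RNA helicase of the testis, held 34 dense sites, 32 of them in the 5′ UTR. It stood at 98.2% ± 0.783 (SD, n = 7) in the MEF-1 lines and 95.0% ± 2.38 (SD, n = 7) in the MEF-2 lines, where the lowest line was at 90.5%.

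The dense methylated sites lay mostly inside genes. By the GENCODE M21 annotation, 73.1% were in gene bodies and 4.61% in promoters, taken as the 1000 bp before the start of any protein-coding transcript. Coding exons held 51.0%, introns 18.7%, 5′ UTRs 1.77%, 3′ UTRs 1.63% and intergenic DNA 22.3%. Coding exons held 10.2% of the less dense methylated sites and 17.8% of the 148994 dense sites that were under 10% in both parents. Promoters held 44.5% of the latter, 4.41% of the less dense methylated sites and 18.9% of all measured CpGs. The low promoter share was thus common to both methylated groups. Gene bodies held 63.6% of the less dense methylated sites, and coding exons 9.52% of all measured CpGs. The median distance to the nearest start was 10222 bp for the dense methylated sites and 193 bp for the dense unmethylated ones. A last exon held 26.0% of the dense methylated sites, 5.91% of the less dense methylated and 2.83% of the dense unmethylated sites, and a first exon held 5.16%, 1.21% and 40.5%. The capture probes target chosen regions, so these shares describe captured CpGs and not the genome.

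**Figure D3:**
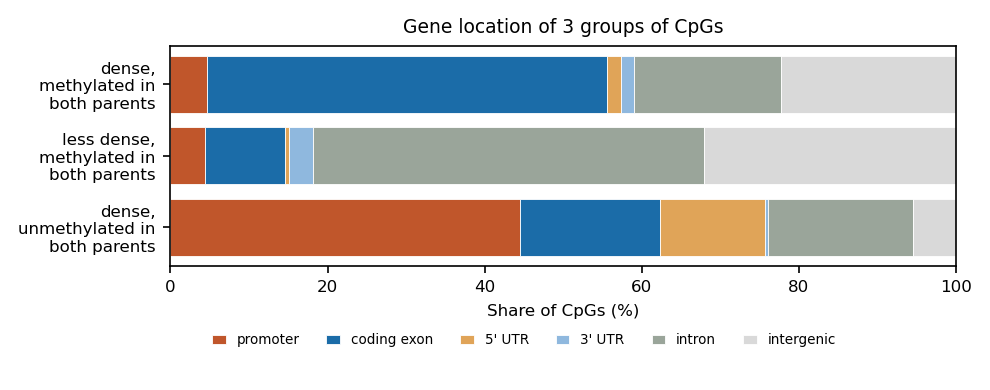
Share of CpGs (%) by gene location for the 5873 dense methylated sites, the less dense methylated sites and the dense sites unmethylated in both parents. Coding exons take 51.0% of the first group and promoters 44.5% of the third.

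Retrocopies were common among the sites outside genes. Processed pseudogenes, which arise when an mRNA is copied back into the genome, held 14.1% of the dense methylated sites, 3.30% of the less dense methylated and 0.248% of the dense unmethylated ones. Of 1309 intergenic dense methylated sites, 579 (44.2%) lay in 105 such pseudogenes. Among all processed pseudogenes, within genes or between them, the sites of the group in Gm11620 (30 sites) ranged over the 14 lines from 95.9% to 98.7%, and those in Gm49264 (29 sites) from 96.4% to 99.1%. The copies Rpl13-ps1 and Rpl13-ps3 of a ribosomal protein gene held 20 and 15 sites, at no less than 97.7% and 93.8% in any line, and the former lies in an intron of Usp32. The dense sites in pseudogenes were kept at 97.0% ± 0.590 (SD, n = 7) in the MEF-1 lines and at 94.2% ± 1.34 (SD, n = 7) in those of MEF-2. Their median depth was 40 reads against 27 for sites in no pseudogene, and since a retrocopy resembles its parent gene, its reads are open to assignment from elsewhere, which was not tested.

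Within genes, the most dense methylated sites lay in Fat1, which encodes a giant cadherin, with 77 sites in coding exons over 10 runs. Their pooled level was 97.9% in the lowest and 98.8% in the highest of the 14 lines, and none was lost. Levels of gene bodies cover the sites of the group alone, and the other dense CpGs of these genes were not counted. Plec, the gene of the cytoskeletal linker plectin, held 66 sites in coding exons at 98.4% to 99.2%. Zfp704, a zinc finger gene, held 51 sites in an intron, at 98.4% ± 0.364 (SD, n = 7) in the MEF-1 and 96.0% ± 1.40 (SD, n = 7) in the MEF-2 lines, the lowest being 93.1%. Zfp467, also a zinc finger gene, held 37 coding sites at 95.7% to 99.1%. Scaf1 (43 sites), Tenm3 (43), Sbk1 (36), Klhl26 (35) and Spen (35) are the genes of the regions given above. The gene model Gm20388 counted 63, but 57 of these also lay in the body of another gene. In these 10 genes, 3 combinations of a site with a line were lost, 1 each in Scaf1, Zfp467 and Gm20388.

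Promoters with dense methylated sites were few. Of 5060 protein-coding genes with at least 3 dense promoter sites measured, 56 had a dense methylated site and 39 had at least 3. Dapk3, a death-associated protein kinase gene, had the most, 17 of 59 dense promoter sites, and these 17 were at 97.2% to 99.8% over the 14 lines, whereas all 59 together averaged 22.6% over the MEF-1 and 24.1% over the MEF-2 lines. The Dapk3 promoter thus held dense sites of high and of low methylation. In the promoter of Srrm2, a splicing factor gene, 10 of 25 sites were in the group, and all 25 averaged 67.8% and 62.6%. In that of Hsf4, a heat shock factor gene, 8 of 25 were, and all 25 averaged 76.7% and 73.6%. These averages do not tell a mix of high and low sites from partly methylated ones. In 5 of the 10 promoters with the most sites, nearly the whole dense promoter was methylated. Foxl1 (8 of 8 sites) averaged 98.6% and 97.2% in the MEF-1 and MEF-2 lines, CN725425 (10 of 10) 98.1% and 97.1%, Gm9008 (12 of 13) 95.7% and 96.9%, Mex3d, an RNA-binding protein gene (8 of 10), 97.2% and 95.5%, and Zfp513, a zinc finger gene (11 of 15), 93.1% and 91.6%. The gene 4933416C03Rik had 9 of 19 sites, with 1 lost in 1 line. In the promoter of Fkbp6, a gene needed for meiosis in the male germ line, 12 of 21 sites were in the group and all 21 averaged 93.1% and 86.1%. Over the 39 promoters with at least 3 sites of the group, the level over all dense promoter sites in the MEF-1 lines went from 9.97% in Sdf4 (3 of 85 sites) to 99.2% in Ankrd50 (3 of 3).

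**Figure D4:**
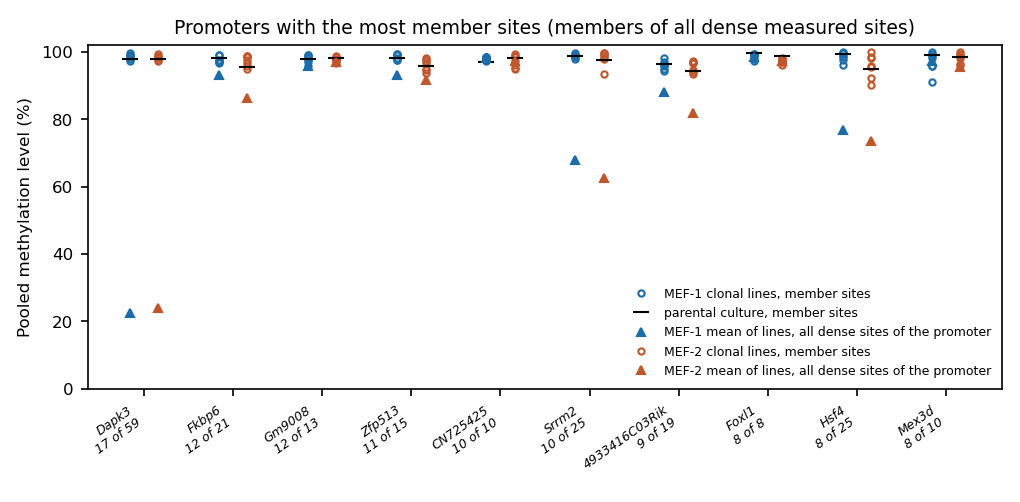
Pooled methylation level (%) in the 10 promoters with the most dense methylated sites, with the number of these sites among all measured dense sites under each name. Circles are the 7 clonal lines of each culture and dashes the parental cultures, both over the dense methylated sites, and triangles are means of the lines over all dense sites of the promoter. Circles stay at 90% or above throughout, and the triangles of Dapk3 are at 22.6% and 24.1%.

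Promoter sites were kept somewhat less often than gene body sites, with a call in MEF-2 that depended on the settings. The share was 94.8% ± 1.49 (SD, n = 7) of 271 promoter sites against 96.7% ± 0.321 (SD, n = 7) of 4293 gene body sites in the MEF-1 lines, and 93.7% ± 1.22 (SD, n = 7) against 95.0% ± 0.692 (SD, n = 7) in the MEF-2 lines. The differences were -1.87 ± 1.59 points (SD, n = 7, exact sign-flip test, p = 0.0313, adjusted p = 0.0365) and -1.29 ± 1.23 points (SD, n = 7, exact test, p = 0.0469, adjusted p = 0.0469), each with 6 of 7 lines lower. The MEF-2 difference was not significant under any of 8 other settings, in 7 of which it lay between -1.10 and -0.00413 points (exact test, p = 0.250 to 0.984), and it turned to 0.836 points at a density of at least 20 (exact test, p = 0.422). The MEF-1 difference was lost at that density (-0.580 points, exact test, p = 0.469). The call was lost in MEF-1 without any one of lines 1, 2, 3, 4, 6 and 7 (-2.03 to -1.51 points, exact test, p = 0.0625) and in MEF-2 without any one of lines 2 to 7 (-1.47 to -1.08 points, exact test, p = 0.0625 to 0.0938).

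Genes of the germ line made up the list with the most such promoters. In a list of 61 such genes, 17 had at least 3 dense promoter sites, and 10 of these 17 held a dense methylated site, beside 56 of 5060 over all genes. The sites of the group numbered 12 in Fkbp6, 7 in Dazl, an RNA-binding protein of germ cells, 6 in Hormad1, a protein of the meiotic chromosome axis, and 6 in Sycp1. Over all 8 dense sites of the Dazl promoter the level was 98.3% ± 1.07 (SD, n = 7) in the MEF-1 and 98.5% ± 1.46 (SD, n = 7) in the MEF-2 lines, with 95.6% in the lowest line. Over the 12 dense sites of Hormad1 it was 85.5% ± 3.34 and 88.6% ± 3.58 (SD, n = 7 each), and over the 8 of Sycp1 93.4% ± 4.25 and 98.7% ± 1.69 (SD, n = 7 each). Not all were methylated: 4 of the 17 averaged under 10% over the lines, among them Catsper2, a gene of the sperm calcium channel, at 1.45% ± 1.08 and 1.35% ± 0.542 (SD, n = 7 each) over 25 dense sites. The median over the 17 germ line promoters was 87.1%, against 1.55% over all 5060.

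The other lists held few or none. Imprinted genes had 13 promoters with at least 3 dense sites and no site of the group, with a median level of 46.7%. Developmental regulators had 58 such promoters with a median of 7.83%, and 2 of them, Irx1 and Irx2, held 1 site each. No site of the group lay in the 11 promoters of tumour suppressors and related genes that cancers silence (median 1.46%), the 7 of pluripotency genes (2.15%), the 8 of epithelial genes (17.6%), the 3 of fibroblast genes (1.57%) or the 19 of housekeeping genes (1.42%). Over all genes, 56 of 5060 such promoters held one, so a count of 0 in lists this small, the imprinted one included, says little. In gene bodies, such sites were held by 18 of 183 developmental regulators, 6 of 61 germ line genes, 3 of 30 pluripotency, 3 of 44 epithelial, 2 of 38 imprinted, 2 of 39 tumour suppressor, 1 of 30 housekeeping and 0 of 24 fibroblast genes, beside 658 of 18832 protein-coding genes. Unlike the promoter counts, these take in all genes of a list, whether or not a dense CpG was measured in the body. Of 658 genes with dense methylated sites in the body, 33 (5.02%) had a zinc finger name (Zfp, Zbtb, Zscan or Zkscan), beside 411 of 15060 genes with any measured CpG (2.73%). The 15060 were likewise not limited to genes with a dense CpG.

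**Figure D5:**
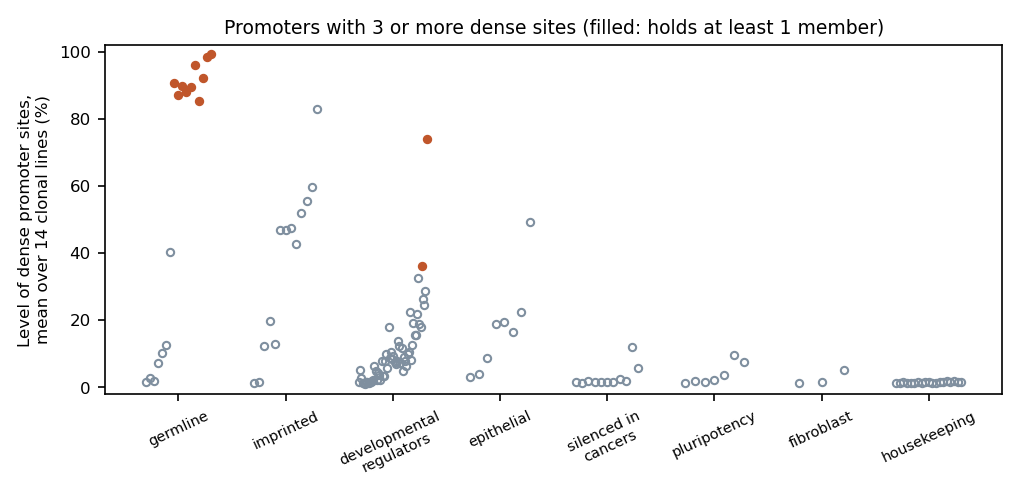
Mean level over the 14 clonal lines (%) of the dense promoter sites of each gene with at least 3 such sites, by gene list, with 1 point per gene. Filled points are promoters that hold a dense methylated site. They are 10 of the 17 germ line promoters and 2 of the 58 of developmental regulators, and the 19 housekeeping promoters have a median of 1.42%.

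Dense sites far from CpGs of low methylation were kept more often than those next to one. This comparison was chosen after earlier values were seen. For 995 dense sites within 100 bp of a CpG whose mean parental level was under 50%, the share kept was 95.1% ± 0.501 (SD, n = 7) in the MEF-1 and 91.9% ± 1.45 (SD, n = 7) in the MEF-2 lines. Between 100 and 200 bp it was 94.4% ± 0.679 and 92.5% ± 1.70, and between 200 and 500 bp 96.0% ± 1.02 and 93.5% ± 1.15 (SD, n = 7 each), so in MEF-1 the nearest sites were not the lowest. For the 3966 sites more than 500 bp from any such CpG it was 97.2% ± 0.334 and 95.7% ± 0.715 (SD, n = 7 each). The far sites were kept more often, by 2.06 ± 0.605 points in the MEF-1 lines and by 3.81 ± 1.09 points in those of MEF-2, in 7 of 7 lines each (SD, n = 7, exact sign-flip test, p = 0.0156, adjusted p = 0.0156 over 2 comparisons). The less dense methylated sites also had a gap, with 94.8% near and 96.4% far in MEF-1 and 89.6% and 93.5% in MEF-2. Depth of the dense sites was alike, at medians of 29 and 28 reads, but the near sites also had a lower mean parental level, 97.2% against 98.1%, and the part of this in the difference was not tested.

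Between the cultures, 161 of the 5873 dense sites were called different by a quasi-binomial model with Benjamini-Hochberg adjustment over all CpGs (2.74%), beside 20.2% over all CpGs and 3.20% of the less dense methylated sites. Of the 161, 122 were higher in the MEF-1 lines and 39 in the MEF-2 lines, beside 6481 and 867 at the less dense methylated sites and 139941 (11.6% of those tested) and 102616 over all CpGs. With at least 20 reads in every library 79 of 2278 dense sites were called, and 89 with reads thinned to 10. The median size was 11.1 points, and 31 sites differed by at least 20 points. The widest was a coding site of Trappc9 (chr15:73058061), at 100% in all 7 MEF-1 lines and 53.5% ± 18 (SD, n = 7) in the MEF-2 lines (adjusted p = 2.29e-05). Its MEF-2 parent was at 90.9%, just above the criterion. In the other direction, a coding site of Ptgfrn (chr3:101080295) was at 62.0% ± 7.48 (SD, n = 7) in the MEF-1 lines and 100% in all 7 MEF-2 lines (adjusted p = 1.34e-05), and its MEF-1 parent was at the criterion itself, 90%. The region with the most called sites, named after its values were seen, was in an intron of Mark1, a microtubule affinity-regulating kinase gene (chr1:184956412-184956722). There 7 of 20 dense sites were called, all higher in MEF-1. The pooled level of these 20 sites was 98.1% ± 0.358 (SD, n = 7) in the MEF-1 and 91.5% ± 2.17 (SD, n = 7) in the MEF-2 lines, while the parents were at 97.6% and 96.1%.

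Scores deposited by the authors describe the same sites. Their fidelity score, a fraction from 0 to 1 for how often the clonal lines held a state expected of a single cell, averaged 0.959 over the dense methylated sites, 0.949 over the less dense methylated and 0.964 over the dense unmethylated sites. Their neighbour similarity score averaged 0.856, 0.774 and 0.938. By sequence, 61.4% of the bases around a dense methylated site were G or C, against 48.5% around a less dense methylated and 65.0% around a dense unmethylated site, and 1.65% of the dense methylated sites were in soft-masked repeats. In coding exons with a reading frame, the cytosine was at codon position 1, 2 or 3 in 36.6%, 23.4% and 39.9% of the dense methylated sites, in 37.5%, 23.9% and 38.6% of the less dense methylated ones, and in 25.4%, 31.1% and 43.5% of the dense unmethylated ones.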

How the data were processed

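Per the labels and the study's methods, DNA was sonicated, captured with SureSelectXT Methyl-Seq probes, bisulfite converted and sequenced. The authors trimmed reads (Trim Galore 0.6.0), aligned them to mm10 with Bismark, dropped mapping quality under 10 and biased read ends, and combined both strands. Removal of PCR duplicates is not given in the sources used here. The deposited counts are raw methylated and unmethylated reads of CpGs with 10 or more reads in all 16 libraries, without chromosomes 12, 18, 19, X and Y. The deposited fidelity and neighbour similarity scores run from 0 to 1 and were computed by the authors (R 3.6.1), and 2 further columns were not used here. Library tables matched the series table at all 1203687 CpGs.

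From the counts, levels, exact sign-flip and permutation tests over lines, a quasi-binomial F-test and one-sided Fisher's exact tests per CpG were computed (Python 3.11.15, scipy 1.17.1, limma 3.58.1 as an alternative), tested on simulated data. Genes came from GENCODE M21 and sequence from RefSeq GRCm38.p6. Named were the 10 regions, promoters and gene bodies with the most sites (ties in name order), the 10 sites lowest in Fisher p (1 per region) and up to 4 genes per list, of which 1 site is not reported here. The sites and lists were chosen with earlier results of these data known. Line numbers did not pair the lines (correlations of -0.00342 to 0.0102). p-values of tests over lines measure the spread between lines of 1 culture each, and Fisher p-values, from pooled reads, counting error only.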

Additional observations from a re-analysis of the deposited data

Results flagged for a closer look

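The share of dense gene body sites kept in MEF-2 clonal line 3, 93.6%, lay apart from the other 6 MEF-2 lines, which ranged from 94.8% to 95.7%, by Dixon's ratio (0.580). Of 14 combinations of a measure and a culture examined this was the 1 that stood out. Chance alone marks about 1 in 20, but the measures overlap, so the 14 are not independent. The same line had the fewest lost dense sites of MEF-2, 5. The advantage of dense over less dense sites in the share kept was 0.513 points over the MEF-1 lines against 2.16 points over those of MEF-2, a difference of -1.64 points (exact permutation test, p = 0.000583).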

How the results depend on the processing

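Of 173 alternative values, 122 stayed on the same side of the threshold, within the spread of the lines or, for counts, within 1.5 times. The share kept was 97.7%, 97.7%, 95.9%, 97.0%, 95.5% and 98.9% in MEF-1 with at least 20 reads, parents at 95% or more, a density of 20 or more, reads thinned to 10, each region counted once and kept set at 80%. In MEF-2 it was 95.6%, 96.3%, 95.5%, 93.2% and 98.3% under the same settings but the density. At a density of 20 or more, the gap between dense and less dense sites turned to -0.136 points in MEF-1, the difference between MEF-1 and MEF-2 was 0.976 points, and promoter minus gene body was -0.580 points in MEF-1, no longer significant (exact test, p = 0.469), and turned to 0.836 in MEF-2. On chromosomes 3, 4, 6 and 9 alone the MEF-1 gaps in kept and lost share were 0.366 and -0.161 points and lost significance. Promoter minus gene body in MEF-2 was not significant at -0.746 (20 reads), -0.339 (parents at 95%), -0.516 (density counted in the reference), -0.852 (thinned), -1.10 (4 chromosomes), -0.626 (regions) and -0.00413 points (kept at 80%). The cause was not tested. A setting without MEF-1 lines 1, 4 and 5, those with the fewest losses, was planned for the difference between MEF-1 and MEF-2. This was then 1.81 points (exact permutation test, p = 0.00303). For the results within MEF-1 the setting was added after the values were seen, and there the 4 lines left allow no p under 0.125. The MEF-1 gaps in kept and lost share and promoter minus gene body were then 0.767, -0.212 and -2.43 points.

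Leaving out 1 line, with 6 left and a smallest p of 0.0313, the kept gap was 0.444 to 0.606 points in MEF-1 and 2.09 to 2.27 in MEF-2, promoter minus gene body -2.23 to -1.51 and -1.63 to -1.08, the lost gap -0.155 to -0.108 and -0.208 to -0.164, and the difference between the cultures 1.60 to 2.01. The 161 sites called between the cultures became 117 to 143 without 1 line, 79 of the 2278 sites with at least 20 reads, 89 thinned, and 176 and 154 by limma without and with the replicate block. With the block, lines paired by number, the kept shares differed by the same 1.88 points (exact test, p = 0.0156). No other result was fitted with the block. The 788 lower combinations became 483 (among the same 2278 sites), 66 (thinned) and 1406 (13 other lines as reference), and the 0 lost regions became 6 with a loss set at 75%. Depth limits single sites, as few reads stand behind a level of 90%.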
